A study of Mus musculus with 4 samples.

Results

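A group of 36 genes was transcribed in wt MEF cells and had almost no reads in Top2β-null MEF cells. The genes were selected on the counts of this same comparison: 3 or fewer counts in each Top2β-null library and at least 0.5 CPM (counts scaled to a library total of 1000000) in each wt library, with symbols that start with Hox, Pcdh, Col or Zfp left out. They are 36 of the 54842 genes counted and of the 17087 genes that reached the wt minimum. A further 6 genes met the limits and were left out by symbol (Hoxd3, Hoxd3os1, Hoxd4, Hoxd8, Hoxd9 and Pcdhac2). With the groups exchanged, the same limits gave 171 genes that were silent in wt and read in Top2β-null MEF cells.

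MEF cells are mouse embryonic fibroblasts, connective tissue cells grown out of the embryo. The samples were 2 libraries of wild-type (wt) MEF cells and 2 libraries of MEF cells with the top2beta null genotype. Both groups were untreated and grown in the same medium. The null cells were a gift from other laboratories, so the genotype and the origin of the cell line cannot be told apart in these data. Nothing in the labels says whether the replicates are separate cultures, so their spread may be technical. In RNA from bulk cells, fewer cells of a type and less RNA per cell cannot be told apart.

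Library totals ranged from 133116830 to 149647278 counts. At these totals, 0.5 CPM is 71.2 to 74.8 counts in the wt libraries, and the limit of 3 counts is 0.0217 to 0.0225 CPM in the Top2β-null libraries. Top2b itself, the gene of DNA topoisomerase IIβ, had 18091 and 19117 counts in wt and 3745 and 3826 counts in Top2β-null MEF cells. Its log2 fold change was -2.26 ± 0.03 (SE, edgeR, adjusted p = 6.56e-19), so its RNA was lower but was still read. For the protein, the paper reports by Western blot that Top2β was absent from the Top2β-null MEF cells. Of the fibroblast markers, the summed level was 9885 and 10008 CPM in wt and 7126 and 7215 CPM in Top2β-null MEF cells. Of 14 fibroblast markers tested, 3 were called lower (Postn at -5.86, Col1a1 at -1.38 and Col3a1 at -1.01) and 4 were called higher, the largest being Dcn (4.99), Thy1 (2.07) and Pdgfrb (1.88).

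DNA topoisomerase IIβ cuts both strands of a DNA duplex, passes another duplex through the break and seals it, which relieves the torsion that builds up when DNA is transcribed. It is the isoform that remains in non-dividing cells and is known for its part in the expression of long genes and of developmental genes in neurons. Fibroblasts from different sites of the embryo keep positional programmes of transcription factors, receptors and secreted proteins, and many genes are stably silent in a given line. A gene without reads in a line can therefore be a gene that was never used in those cells or a gene that was shut off, and read counts do not separate these.

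The 36 genes held 28925 and 30662 counts in the wt libraries and 46 and 33 counts in the Top2β-null libraries, or 203 and 205 CPM against 0.346 and 0.239 CPM. Of the 36, 8 had no count in either Top2β-null library, 15 had no count in one of them and 13 had counts in both. All 36 passed the filter on low counts, and 16 were called lower by the fit across all genes, in which 5.25% of the 25085 genes tested were called lower and 5.52% were called higher. For a call, the mean normalized count had to exceed 100, the log2 fold change had to be larger than 1 in size and the adjusted p smaller than 0.05. The 20 genes without a call had a mean of 100 or less. Since the rule read these counts, the calls are no support for the choice. Counts of calls and counting intervals for the 36 are given as a description only.

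**Figure D1:**
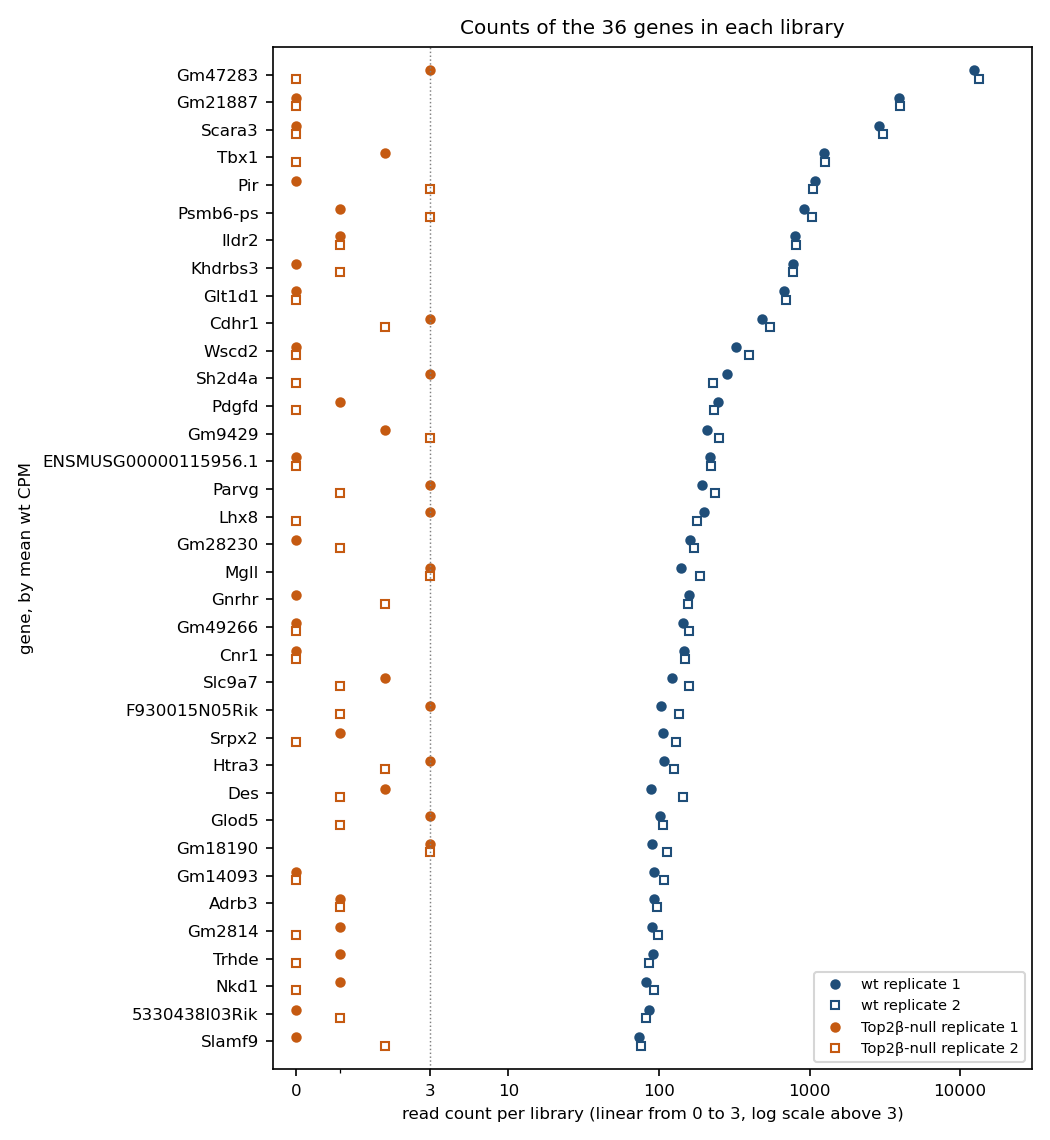
Read counts of the 36 genes in the 4 libraries (x axis, linear from 0 to 3 and logarithmic above), ordered from top to bottom by mean wt CPM, with wt in blue and Top2β-null in orange and the dotted line at the limit of 3 counts. The wt counts run from 74 in Slamf9 to 13319 in Gm47283, and the 2 wt symbols of a gene lie close together.

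Most of the genes were weakly read in wt MEF cells. The median of their mean wt levels was 1.13 CPM beside 10.9 CPM for all genes that reached the wt minimum. The levels were at least 5 CPM in 8 genes and below 1 CPM in 14, and the 3 highest genes held 66.4% of the wt counts of the group. The wt libraries were alike: the median absolute log2 ratio between them was 0.11 in the group and 0.05 over all genes that reached the wt minimum, or 0.15 over the 2599 of these below 1.2 CPM. Des was the only member for which this ratio was above 0.5.

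For 18 of the 36 genes, the RefSeq table of GRCm38.p6 promoters holds a window from 250 bases before the start to 50 after it, with 23 windows in all. CpG is the dinucleotide that carries most DNA methylation in mammals, and promoters with many CpGs are open in most tissues, whereas promoters with few tend to be used by particular cell types. The 4 stretches below are the 150 bases just before the start, 5′ to 3′, for the members with the most and the fewest CpGs among the 13 named coding members with a single window, with each CpG in capitals. They show the range within the group: Ildr2 (chr1:166253989-166254138, plus strand) and Slc9a7 (chrX:20291828-20291977, minus strand) hold 21 and 13 CpGs, and Htra3 (chr5:35679781-35679930, minus strand) and Srpx2 (chrX:133908275-133908424, plus strand) hold 2 and 1.
Ildr2: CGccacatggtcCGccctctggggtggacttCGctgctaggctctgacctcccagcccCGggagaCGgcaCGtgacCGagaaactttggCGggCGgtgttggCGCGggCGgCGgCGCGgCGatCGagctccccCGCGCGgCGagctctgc
Slc9a7: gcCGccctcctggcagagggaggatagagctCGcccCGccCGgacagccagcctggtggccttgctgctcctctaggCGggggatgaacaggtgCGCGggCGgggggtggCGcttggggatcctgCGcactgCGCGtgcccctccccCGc
Htra3: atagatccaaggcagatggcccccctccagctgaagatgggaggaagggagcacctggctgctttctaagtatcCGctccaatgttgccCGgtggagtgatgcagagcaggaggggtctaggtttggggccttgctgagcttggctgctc
Srpx2: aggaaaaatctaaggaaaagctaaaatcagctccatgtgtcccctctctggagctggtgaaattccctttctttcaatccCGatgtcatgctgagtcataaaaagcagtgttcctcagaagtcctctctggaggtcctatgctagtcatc

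The observed/expected CpG ratio compares the CpGs found with those that the C and G content would give. Over the whole windows it was 0.90 for Ildr2, 0.65 for Slc9a7, 0.15 for Htra3 and 0.14 for Srpx2. Its median was 0.41 over the 23 windows of the group and 0.75 over the 12829 windows of genes that reached the wt minimum, and 10 of 23 windows (43.5%) against 68.3% had a ratio of at least 0.6. Over 100 windows of the genes with the opposite pattern, the median was 0.44 and 37% had a ratio of at least 0.6, close to the values of the members. The level in wt moves with this measure. Among genes below 2 CPM in wt, the median ratio was 0.35 over 18 windows of the group and 0.47 over 1622 windows, and a ratio of at least 0.6 was found in 38.9% and 39.4% of windows. The part of the expression level in the difference was not tested.

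**Figure D2:**
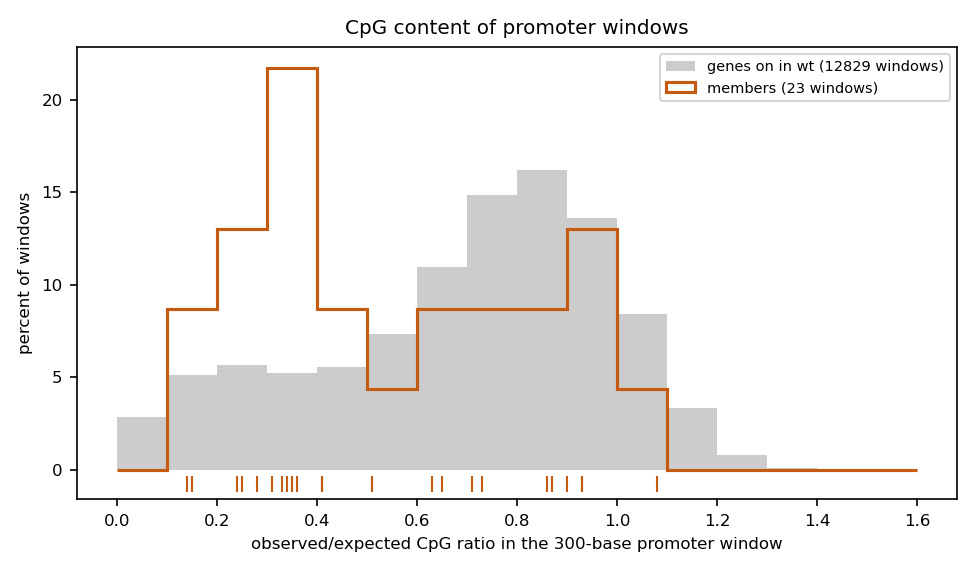
Share of promoter windows (y axis, percent) by observed/expected CpG ratio (x axis) for the 12829 windows of genes that reached 0.5 CPM in wt (grey) and the 23 windows of the members (orange line, with 1 tick per window). The members fill the range from 0.14 to 1.08 with a median of 0.41, and the grey distribution has its median at 0.75.

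Short motifs were searched on both strands of the same windows. The letters GGGCGG, the core of the GC box bound by SP factors, were in 9 of 23 windows (39.1%), beside 61.4% of windows of genes that reached the wt minimum and 35.7% of all promoters in the table. CCAAT was in 4 windows (17.4%, beside 37.9% and 37.4%), and the TATA box letters TATAAA were in 2 (8.7%, beside 6.91% and 13.6%), those of Gnrhr and Pdgfd. The E-box CACGTG was in 5 windows (21.7%, beside 9.9% and 7.15%), which belong to Cnr1, Ildr2, Mgll, Slamf9 and Srpx2. These matches describe the letters of the windows.

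Among the transcription and RNA regulators, Tbx1 had the most reads. Tbx1 is a T-box transcription factor of the pharyngeal arches and the second heart field, where its loss disturbs the outflow tract and the palate. It had 1244 and 1262 counts in wt and 2 and 0 counts in Top2β-null MEF cells, or 8.58 ± 0.211 CPM (SD, n = 2) in wt. The wt to Top2β-null ratio of pooled counts, scaled to the pooled library totals of each group, was 1164. Its 95% exact counting interval, from 322 to 9615, covers counting error only. Lhx8, a LIM homeobox factor of the basal forebrain, the palate and the teeth, had 199 and 178 counts in wt and 3 and 0 in Top2β-null MEF cells.

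Pir and Khdrbs3 are the other regulators. Pir encodes pirin, an iron-binding nuclear protein that acts with NF-κB factors, and had 1088 and 1059 counts in wt and 0 and 3 in Top2β-null MEF cells. Khdrbs3 encodes SLM2, an RNA-binding protein that controls alternative splicing, and had 774 counts in each wt library and 0 and 1 in Top2β-null MEF cells. Per kilobase of exon, the wt levels were 2.44 CPM for Tbx1, 1.45 for Khdrbs3, 1.32 for Pir and 0.511 for Lhx8.

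The 8 receptors and other surface proteins held 2 genes without a count in the Top2β-null libraries, Scara3 and Cnr1. Scara3 encodes a class A scavenger receptor of fibroblasts that is known to be induced by oxidative stress. Its counts were 2887 and 3071 in wt and 0 in each Top2β-null library. At 20.4 ± 0.181 CPM (SD, n = 2) in wt against a floor of 3 counts per null library, it was at least 922-fold lower. It was the highest of the named coding genes of the group, also per kilobase of exon (5.67 CPM).

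The 3 G protein-coupled receptors of the group were less abundant. Cnr1, the cannabinoid receptor of neurons that also acts in fat and connective tissue, had 146 and 148 counts in wt and 0 in each Top2β-null library, at least 45.5-fold lower. Gnrhr, the receptor for gonadotropin-releasing hormone of the pituitary, had 158 and 155 counts in wt and 0 and 2 in Top2β-null MEF cells. Adrb3, the β3-adrenergic receptor of fat cells, had 93 and 97 counts in wt and 1 in each Top2β-null library. All 3 receptors are best known from tissues other than fibroblasts, and their wt levels per kilobase of exon were 0.156, 0.335 and 0.193 CPM. Adrb3 shares 21.4% of its 31-base words with Gm45470, an antisense gene that overlaps it.

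Ildr2, an immunoglobulin-like membrane protein of tricellular contacts, had 800 and 809 counts in wt and 1 in each Top2β-null library. Cdhr1, a cadherin-related protein of photoreceptors, had 483 and 546 counts in wt and 3 and 2 in Top2β-null MEF cells. The antisense RNA 5330438I03Rik lies within Ildr2 and shares 30.4% of its 31-base words with it, and had 86 and 82 counts in wt and 0 and 1 in the null libraries. The setting for strand in the counting is not given in the sources used here, so the reads of this antisense pair may not be separate. Trhde, the ectoenzyme that degrades thyrotropin-releasing hormone, and Slamf9, a SLAM-family receptor of immune cells, were the weakest surface proteins in wt. Trhde had 92 and 86 counts in wt and 1 and 0 in Top2β-null MEF cells. Slamf9 had 74 and 76 counts in wt and 0 and 2 in Top2β-null MEF cells, just above the wt minimum.

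Of the 3 secreted proteins, Pdgfd had the most reads. It encodes a platelet-derived growth factor that is cleaved to become active and acts on the β receptor of mesenchymal cells. Pdgfd had 247 and 231 counts in wt and 1 and 0 in Top2β-null MEF cells, a ratio of 444 (95% counting interval 79.3 to 17571). Srpx2, a sushi-repeat protein of the extracellular space, had 107 and 130 counts in wt and 1 and 0 in the null libraries. Htra3, a serine protease that antagonizes TGF-β signals, had 108 and 125 counts in wt and 3 and 2 in the null libraries.

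The 4 signalling and cytoskeletal proteins were Sh2d4a, Parvg, Des and Nkd1. Sh2d4a, an SH2 adaptor, had 282 and 228 counts in wt and 3 and 0 in Top2β-null MEF cells. Parvg, the γ-parvin that links integrin-linked kinase to actin and is typical of blood cells, had 192 and 235 counts in wt and 3 and 1 in the null libraries. Nkd1, an inhibitor and target of WNT signalling that binds Dishevelled, had 82 and 93 counts in wt and 1 and 0 in the null libraries.

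Des is desmin, the intermediate filament of muscle cells. Its counts were 88 and 144 in wt and 2 and 1 in Top2β-null MEF cells, and the wt libraries differed by 0.64 on the log2 scale, the widest spread of the group. Of the skeletal muscle factors, Myf5, Myog and Pax7 had no count in any library and Myod1 had 1 count in 1 Top2β-null library. Of the other skeletal muscle markers, Tnnt3 had 20 and 23 counts in wt and 1 and 0 in Top2β-null MEF cells (log2 fold change -5.08, mean under the cut-off for a call), and Ttn had 681 and 676 against 592 and 655 (-0.09). These markers were named after their values were seen. The 10 smooth muscle and pericyte markers, Des among them, summed to 1105 and 1127 CPM in wt and 307 and 308 CPM in Top2β-null MEF cells. Of these markers, Acta2 (103103 and 110676 counts in wt, 5075 and 5484 in Top2β-null, log2 fold change -4.30), Cnn1 (-3.55) and Tagln (-3.41) were called lower and Notch3 (4.37) was called higher. Rgs5 had at most 4 counts in any library. The part of this marker difference in the Des counts was not tested.

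Among the 5 enzymes and transporters, Glt1d1 and Wscd2 had no count in either Top2β-null library. Glt1d1, a putative glycosyltransferase, had 681 and 695 counts in wt and was at least 213-fold lower. Wscd2, a WSC-domain membrane protein with sulfotransferase homology, had 324 and 394 counts in wt and was at least 111-fold lower.

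Mgll encodes monoacylglycerol lipase, the enzyme that breaks down the endocannabinoid 2-AG. It had 140 and 188 counts in wt and 3 in each Top2β-null library, which put it at the limit of the rule in both. Slc9a7, a sodium and potassium/proton exchanger of the trans-Golgi network, had 123 and 159 counts in wt and 2 and 1 in the null libraries. Glod5, a glyoxalase-domain protein, had 101 and 107 counts in wt and 3 and 1 in the null libraries. Of the 36 genes, 13 had 3 counts in at least 1 Top2β-null library, and Mgll and Gm18190 had 3 in both.

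The remaining 12 genes are predicted genes, pseudogenes and noncoding RNAs, and they include the highest gene of the group. Gm47283 had 12354 and 13319 counts in wt and 3 and 0 in Top2β-null MEF cells, and alone held 43.1% of the wt counts of the 36 genes. Gm21887 had 3949 and 3985 counts in wt and 0 in each Top2β-null library, at least 1228-fold lower. In the annotation Gm47283 is at chrY:90784738-90816464 and Gm21887 at chrX:170009659-170019281, toward the ends of Y and X, which share sequence and exchange it in male meiosis. They have 501 31-base words in common, 46.8% of those of Gm47283 and 62% of those of Gm21887, so that the division of reads between them is uncertain.

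Elsewhere on Y, Ddx3y (4741 and 4770 counts in wt, 9663 and 9905 in Top2β-null, log2 fold change 1.08) was called higher. Kdm5d (2607 and 2746 against 5611 and 5974, 1.15) and Uty (2573 and 2692 against 5242 and 5513, 1.07) were also called higher. Eif2s3y had 3339 and 3505 counts in wt and 5082 and 5366 in Top2β-null MEF cells and was not called (0.65). Xist, the RNA of the inactive X, had 6 to 25 counts per library. Within 100 kb of Gm47283, Gm21742 had 62 and 78 counts in wt and 14 and 16 in Top2β-null MEF cells (-2.18), and Mid1-ps1 had 47 and 49 against 107 and 157 (1.49), both with means under the cut-off for a call. These genes were chosen after their values were seen, and the counts show Y-linked transcripts in both groups. Mid1, which lies 3923 bases from Gm21887 on X, was called lower with 6209 and 6531 counts in wt and 1544 and 1581 in Top2β-null MEF cells (log2 fold change -1.99).

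Several other members of this class share sequence or position with a larger gene. Psmb6-ps, a processed pseudogene of the proteasome subunit gene Psmb6, had 913 and 1031 counts in wt and 1 and 3 in Top2β-null MEF cells. Psmb6 itself, on another chromosome, had 34868 and 36756 counts in wt and 9517 and 10253 in Top2β-null MEF cells (log2 fold change -1.82, called lower). The pseudogene has 3.81% of its 31-base words in common with other genes. Psmb6 was lower in both Top2β-null libraries but was still abundant, while its pseudogene had at most 3 counts per library.

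Gm28230 overlaps the Hoxd cluster and has 94.2% of its words in common with other genes, most of them Hoxd3 and Hoxd4, both of which met the same limits. It had 162 and 171 counts in wt and 0 and 1 in Top2β-null MEF cells. F930015N05Rik (103 and 136 counts in wt, 3 and 1 in Top2β-null) shares 86.2% of its words with Hs3st3a1, a heparan sulfate sulfotransferase gene on the opposite strand, which was called lower (log2 fold change -5.39). Gm14093 (93 and 108 counts in wt, 0 in each null library) is an intronic transcript of Slc24a3, a sodium/calcium-potassium exchanger gene. Slc24a3 had 2497 and 2550 counts in wt and 3 and 5 in Top2β-null MEF cells, and so missed the limit by 2 counts in 1 library.

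Gm49266 (145 and 158 counts in wt, 0 in each null library) lies within Fbxl7, an F-box gene that was called lower (884 and 839 counts in wt, 8 and 7 in Top2β-null, log2 fold change -6.78). Gm18190, a pseudogene with 60.6% shared words, had 90 and 113 counts in wt and 3 in each Top2β-null library, and the overlapping Gm45844 was called lower (-4.42). Gm9429, a processed pseudogene on X, had 209 and 249 counts in wt and 2 and 3 in the null libraries. ENSMUSG00000115956.1 had 218 and 221 counts in wt and 0 in each null library, at least 68-fold lower, and had no match in the annotation used here. Gm2814, a long noncoding RNA, had 90 and 99 counts in wt and 1 and 0 in Top2β-null MEF cells.

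The limits of the rule cut through a continuous range of counts. Just outside the null limit, 15 genes had a largest null count of 4 or 5 with at least 0.5 CPM in wt, among them C1ql1 (1899 and 1927 counts in wt, 5 and 4 in Top2β-null) and Xkr6 (635 and 634, 2 and 4). Just under the wt minimum, 7 genes had 3 or fewer null counts and 0.4 to 0.5 CPM in the lower wt library, for instance Limch1 with 69 counts in each wt library and 1 in each null library. Just inside it, Slamf9, 5330438I03Rik, Trhde and Nkd1 had 0.508 to 0.576 CPM in the lower wt library. Of the genes outside the null limit with up to 10 counts in each null library, 7 had a wt mean of at least 10 CPM, such as Six2, a homeobox factor of the kidney and the face (3001 and 3155 counts in wt, 7 and 2 in Top2β-null).

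By position, 35 of the 36 genes could be placed, and 7 of these (20%) were on the X chromosome: Gm21887, Pir, Psmb6-ps, Gm9429, Slc9a7, Srpx2 and Glod5. X held 2.93% of the genes that reached the wt minimum and 4.68% of the 171 genes with the opposite pattern. The share of X genes called lower was 5.22% of 785 tested, close to the 5.25% of all genes, with as many called higher. Psmb6-ps, Glod5 and Gm9429 lie within 83344 bases of each other on X, so the 7 genes are not 7 separate places. The reads of Gm21887 may also come from Gm47283 on Y, with which it shares sequence.

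Gata1, the erythroid GATA factor, lies in this stretch, 8392 bases from Psmb6-ps. It had 2721 and 2685 counts in wt and 3 and 6 in Top2β-null MEF cells, and was called lower (log2 fold change -9.16). Suv39h1, the heterochromatin histone methyltransferase gene 26092 bases beyond Gm9429, had 7665 and 8217 counts in wt and 6143 and 6308 in Top2β-null MEF cells and was not called (-0.31, adjusted p = 3.98e-08, edgeR). Suv39h1 was chosen after its values were seen.

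The genes around the members were then compared. Within 100 kb of the 35 placed members were 130 other genes that passed the filter, 5 of which are genes of the Hoxd cluster that met the limits of the rule and were left out by symbol. Of these, 25 (19.2%) were called lower and 3 (2.31%) were called higher, beside 5.25% and 5.52% of all genes tested, and their median log2 fold change was -0.55 beside -0.01. A neighbour called lower was found at 17 of the 34 members with any tested neighbour, a count that was not made around other genes. Gm14093, Gm49266, F930015N05Rik and Gm18190 entered it only through a gene that overlaps them. Gata1 alone brought in Psmb6-ps, Gm9429 and Glod5, so the 17 are not 17 separate places. Around the 171 genes with the opposite pattern, 11 of 402 neighbours (2.74%) were called lower and 62 (15.4%) were called higher.

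The largest changes were at Parvg and in the Hoxd cluster. Parvb, the β-parvin gene that lies 8338 bases from Parvg, had 16798 and 17910 counts in wt and 20 and 16 in Top2β-null MEF cells (log2 fold change -9.87, SE 0.06, adjusted p = 1.03e-21, edgeR). Hoxd8 had 2103 and 2065 counts in wt and none in Top2β-null MEF cells. The 3 neighbours called higher were Podxl2, 14198 bases from Mgll, and Ptprn, 95827 bases from Des (4.18 each), and Tspan6, 9997 bases from Srpx2 (1.32).

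At Scara3, the chaperone gene Clu (-2.07), Ccdc25 (-1.28) and the cohesion gene Esco2 (-1.16) were called lower, with 401 and 384 counts in wt and 79 and 103 in Top2β-null MEF cells for Clu. At Sh2d4a, Csgalnact1, an enzyme of chondroitin sulfate synthesis, was called lower (1178 and 1243 counts in wt, 196 and 203 in Top2β-null, log2 fold change -2.56). At Gm2814, the insulin receptor substrate gene Irs2 was called lower (40994 and 42729 counts in wt, 12722 and 13615 in Top2β-null, -1.63). At Des, Speg, a muscle kinase gene, was called lower (-1.85). These neighbours, unlike the members, were still read in Top2β-null MEF cells.

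Some neighbours share reads or the rule itself. Without the neighbours that met the limits of the rule, 21 of 125 (16.8%) were called lower, and without those that overlap a member, 20 of 115 (17.4%). Without the neighbours of Gm28230 in the Hoxd cluster the count was 21 of 123 (17.1%). Near Gm21887, Mid1 was called lower, as were G530011O06Rik (-3.45), Gm15247 (-3.25) and Gm15726 (-3.64), which lie within Mid1 on the other strand. They were counted as separate genes though they may share reads, and were named after their values were seen. No alternative left them out as a group. The share was 24.1% of 79 genes within 50 kb and 11.7% of 377 within 500 kb. The share of genes called lower also differed by chromosome, from 1.7% on chromosome 16 to 12.3% on chromosome 14, with 11.9% on 15 and 10.4% on 8. The part of these chromosomes, which hold 9 of the members, in the share of neighbours was not tested.

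**Figure D3:**
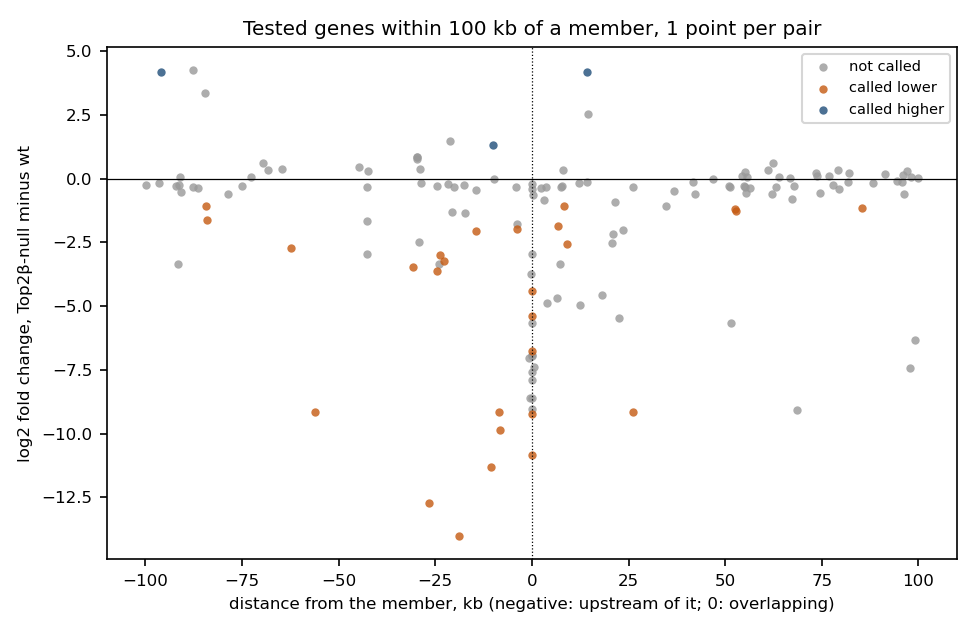
Log2 fold change (Top2β-null minus wt, y axis) of tested genes within 100 kb of a member by their distance from it in kb (x axis), 1 point per pair of member and neighbour, with called genes in colour. Of the 130 genes, 25 were called lower and 3 higher, and values below -10 belong to Hoxd genes without a count in the Top2β-null libraries, whose fitted size depends on the prior count.

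Genes that share a symbol root with a member were compared next, though a shared root is not always a gene family. There were 35 such genes under 10 roots, of which 6 (17.1%) were called lower and 6 (17.1%) higher, beside 5.25% and 5.52% of all genes tested. Their median log2 fold change was -0.26. The T-box genes went both ways. Beside Tbx1, Tbx20 was called lower (3188 and 3245 counts in wt, 341 and 344 in Top2β-null, log2 fold change -3.19). Tbx3 (442 and 493 against 4578 and 5130, 3.41) and Tbx15 (2547 and 2566 against 18192 and 18611, 2.88), which pattern limb and skeleton, were called higher. The antisense gene of Tbx3, Tbx3os1, was also called higher (3.65).

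Of the LIM homeobox genes beside Lhx8, Lhx2 (6 and 12 counts in wt, 371 and 410 in Top2β-null, log2 fold change 5.46) and Lhx6 (843 and 929 against 2077 and 2352, 1.36) were called higher. Adrb1, the β1-adrenergic receptor of the heart, was called lower (174 and 182 against 73 and 71, -1.27). Nkd2, the second Naked cuticle gene, was called higher (46 and 54 against 368 and 452, 3.07), opposite in sign to Nkd1. Scara5, which has a mean under the cut-off for a call and was chosen after its values were seen, had 60 and 37 counts in wt and none in Top2β-null MEF cells.

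The proteasome genes enter through a pseudogene, and the root Glt holds glycosyltransferases of other families than Glt1d1. Among the Psmb genes, Psmb6 and Psmb7 (-1.11) were called lower. Without these genes, 4 of 25 relatives (16%) were called lower and 6 (24%) higher. The lowest of the Htra relatives, Htra1, was called lower at a log2 fold change of -1.01, just past the cut-off of 1.

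**Figure D4:**
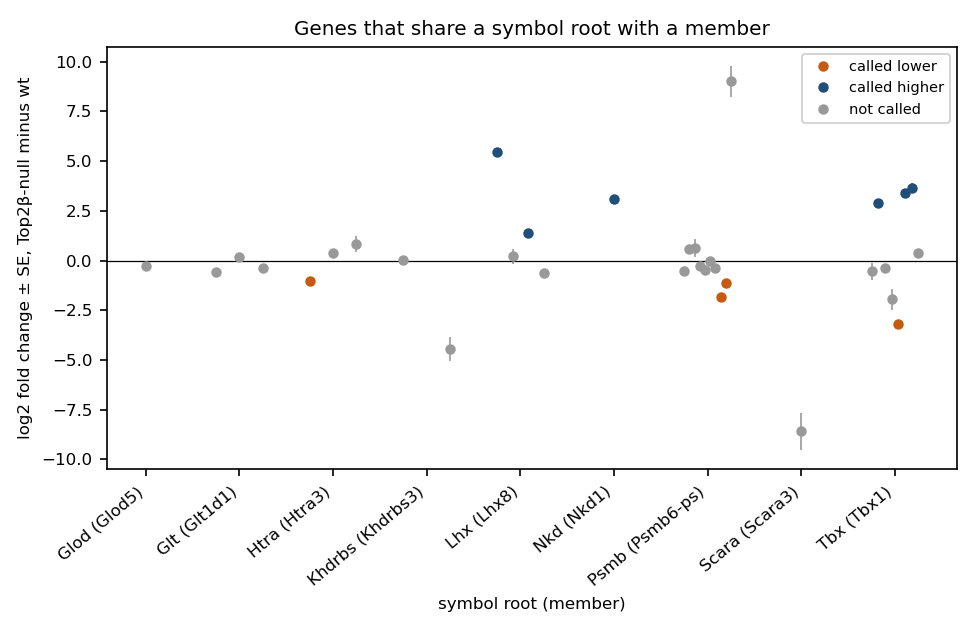
Log2 fold change with SE (Top2β-null minus wt, y axis) of 33 of the 35 tested genes that share a symbol root with a member, by root (x axis, member in brackets, without the root Adrb). The called genes of the Tbx root lie on both sides of 0, from -3.19 to 3.65, whereas the called Lhx genes lie above 0.

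Among the pathways, members were found on the list of patterning transcription factors (Tbx1 and Lhx8) and that of scavenger receptors (Scara3), and on none of the 6 other pathway lists. Of the 86 patterning factors tested that are no members, 11 were called lower and 31 higher, with a median log2 fold change of 0.70, beside 5.25% lower, 5.52% higher and a median of -0.01 over all genes tested. Six2 (-9.34), Ebf1 (-3.72) and Tbx20 were lowest of those that are no members, and Irx1, Irx2 and Msx1 were highest, with no count in wt and, for Irx2, 5982 and 6291 counts in Top2β-null MEF cells. Apart from Tbx1 and Lhx8, the list thus held more genes called higher than lower. The 6 lists without a member had 10 genes lower and 10 higher of 47 (WNT, FGF, BMP and TGF-β ligands and antagonists), 9 and 13 of 59 (axon guidance), 2 and 15 of 45 (imprinted genes), 2 and 6 of 26 (glutathione transferases and aldehyde dehydrogenases), 5 and 3 of 26 (tight and gap junctions), and 1 higher of 9 germline genes, a call that was lost (0) without Top2β-null replicate 1 and without Top2β-null replicate 2. Of 13 scavenger receptors tested besides Scara3, Cd68 (1626 and 1748 counts in wt, 292 in each Top2β-null library, -2.49) was called lower and Scarf2 (1.02) was called higher.

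Of the 11 lists of cell type markers, Des was the only member, on the lists of skeletal and of smooth muscle. Leukocyte markers summed to 23 and 23.3 CPM in wt and 15.6 and 16 CPM in Top2β-null MEF cells, with Tyrobp at 0 and Ptprc at 2 to 7 counts per library. Most of this sum came from Cd68, Csf1r (733 and 794 counts in wt, 929 and 987 in Top2β-null) and Cd14 (776 and 805 against 708 and 762), while Itgam had 1 count in each wt library and 27 and 29 in the null libraries. Fat markers summed to 2.48 CPM in each wt library and 8.33 and 7.86 CPM in the null libraries. Fabp4 (8 and 2 counts in wt, 552 and 539 in Top2β-null) was called higher among them, while Cfd (40 and 39 against 8 and 9) and Pparg (35 and 55 against 32 and 17) were not called. Neuron and glia markers summed to 41.2 and 40.9 CPM in wt and 56.8 and 59.3 in the null libraries, with Foxd3 at 0. The sums for endothelium (6.99 and 7.24 against 32 and 33.4 CPM), epithelium (7.05 and 7.34 against 4.86 and 5.12), cartilage and bone (79.7 and 79.3 against 101 and 104), skeletal muscle (5.57 and 5.69 against 4.54 and 4.83) and pluripotent and germ cells (at most 0.492) were also small beside the fibroblast sum. In the endothelium list, 2 of 9 markers tested were called higher, and 1 of them, Flt1 (391 and 425 counts in wt, 3364 and 3684 in Top2β-null), gave most of the null sum. Of the markers tested, 1 of 6 for epithelium was called lower, and of 8 for neuron and glia 1 was called lower and 1 higher. These counts stand beside 5.25% called lower and 5.52% called higher over all genes tested. Mesothelial markers summed to 117 and 119 CPM in wt and 17.4 and 18 in the null libraries, of which Msln (15940 and 17097 counts against 1713 and 1861, log2 fold change -3.17, called lower) gave 95.8% to 95.9% in wt and 73.8% to 74.8% in the null libraries. Wt1 on the same list went the other way, with no count in wt and 58 and 48 in Top2β-null MEF cells, and was not called. Wt1 and the single leukocyte, glial and fat markers named here, other than Cd68 and Fabp4, were picked after their values were seen. The part of these cell type markers in the counts of Slamf9, Parvg, Adrb3 or other members known from such cells was not tested.

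The partners of some members were put on lists written after the members were known, and their counts stand beside 5.25% called lower and 5.52% called higher over all genes tested. Of 5 PDGF genes tested besides Pdgfd, the receptors Pdgfrb (2909 and 3106 counts in wt, 10483 and 11086 in Top2β-null, log2 fold change 1.88) and Pdgfra (438 and 498 against 981 and 1058, 1.16) were called higher. Pdgfrb, the receptor of this ligand, thus had a change of the opposite sign. Of 6 genes tested besides Parvg in the parvin, integrin-linked kinase and PINCH complex, Parvb, Lims2 (-3.19) and Rsu1 (-1.53) were called lower, and Parva had 15880 and 16619 counts in wt and 15260 and 15840 in Top2β-null MEF cells (-0.03, not called).

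Of the 6 endocannabinoid genes tested besides Cnr1 and Mgll, edgeR and DESeq2 each called 0. At an unadjusted p below 0.05 edgeR gave 3 of them lower and 2 higher, beside 34.9% lower and 34% higher over all genes tested. Faah, which breaks down the endocannabinoid anandamide, had 121 and 135 counts in wt and 40 and 45 in Top2β-null MEF cells (-1.55, adjusted p = 3.76e-06, edgeR), with a mean under the cut-off. The enzymes of 2-AG synthesis, Dagla (-0.01) and Daglb (-0.12), had values near 0, and all 3 were named after their values were seen. Of 9 sodium/proton exchanger genes tested besides Slc9a7, Slc9a9 alone was called lower, beside 5.25% of all genes tested (239 and 287 counts in wt, 10 and 14 in Top2β-null, -4.40). Of the 3 type III intermediate filament genes besides Des, edgeR and DESeq2 each called 0, and 3 were lower at an unadjusted p below 0.05 (edgeR). Vim, with 361388 and 380597 counts in wt and 196172 and 208241 in Top2β-null MEF cells, had a log2 fold change of -0.84.

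By gene type, 28 of 35 annotated members (80%) were protein coding, beside 70.7% of the genes that reached the wt minimum, and 3 were pseudogenes. The median gene length was 24239 bases in the group, 14214 in the genes that reached the wt minimum and 11266 in the 171 genes with the opposite pattern, and the median exonic lengths were 3197, 3396 and 2795 bases. The longest member was Trhde with 403485 bases, followed by Pdgfd with 210267 and Slc9a7 with 186054, and the shortest were the pseudogenes Psmb6-ps with 713 and Gm9429 with 868.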

How the data were processed

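Total RNA depleted of ribosomal RNA (Illumina Stranded Total RNA with Ribo-Zero Plus) was sequenced from 2 wt and 2 Top2β-null libraries. The authors trimmed paired-end reads, aligned them to mm10 (GRCm38) with STAR and counted them with TEtranscripts. What they deposited is a table of raw read counts for genes and repeat families, not normalized. The mode and strand setting of the counting are not given in the sources used here.

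The 36 genes and all lists were chosen with earlier results of these data known. Positions and biotypes come from GENCODE M21 (54495 of 54842 identifiers matched without version), since the files' identifiers are newer than the release that the methods name. Genes and repeats that reached 10 counts in 2 or more libraries were fitted with edgeR 4.0.16 (quasi-likelihood test, TMM factors over genes and repeats together, genotype as the only term) in R 4.3.3, with Benjamini-Hochberg adjustment across everything fitted. A call needed a mean normalized count over 100, a log2 fold change larger than 1 in size and an adjusted p under 0.05. Counts scaled to the TMM-adjusted totals are normalized counts, and CPM uses the plain column total. A fold against 2 libraries at 0 is a lower bound from a floor of 3 counts per library, and other ratios carry exact 95% binomial intervals for counting error. The smallest p that an exact permutation test can give with 2 against 2 libraries is 0.333. The chi-square between replicates, divided by its degrees of freedom, was 3.65 for wt and 5.07 for Top2β-null libraries, above counting noise, and replicates were kept separate.

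Neighbours are tested genes within 100 kb of a member, and relatives are genes whose symbol agrees up to the first digit. Shared sequence was counted as 31-base words of spliced transcripts. Promoter windows are from RefSeq (GRCm38.p6) and were matched by symbol. Every member may be named, and values go to the 30 highest, to those on a list and to those near the limits. Of other genes, the 3 with the largest change in each direction among those called per group are named, unless said to be chosen after their values were seen. A relative that is counted but not named is not reported here. The alternatives were DESeq2 1.42.0, other scalings and filters, the replicate number as a block, leaving out each library, other limits for the members and other distances for the neighbours.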

Additional observations from a re-analysis of the deposited data

How the results depend on the processing

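With DESeq2, scaling by library totals, TMM factors without the repeats, no filter or a filter at 100 counts, 16 members and 25 neighbours were called lower in every case, and relatives called lower or higher numbered 5 or 6. When the adjusted p under 0.05 was the sole condition for a call, 36 members, 79 neighbours and 18 relatives were lower and 20 neighbours and 10 relatives were higher, since fewer conditions apply. Within 500 kb, 44 neighbours were called lower and 16 higher.

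The list itself depends on its limits. It held 8 genes at 0 null counts, 89 at up to 10, 63 at 0.25 CPM and 20 at 1 CPM in wt, and 37 with CPM of the TMM-scaled total. Without 1 library it held 37 to 54 genes, the most without Top2β-null replicate 2 and 49 without Top2β-null replicate 1.

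Leaving out each library in turn, with the lone sample assumed to vary like the other group, 11 to 21 members and 22 to 27 neighbours were called lower and 3 to 4 neighbours higher, relatives called lower or higher numbered 5 to 6, and Top2b was at -2.27 to -2.24. The replicate numbers were not shown to pair the libraries (correlation of deviations 0.013 over 17948 features), and with the replicate number as a block 16 members, 25 neighbours and 6 relatives were called lower and 3 neighbours and 6 relatives higher, as without it. Alternatives for the neighbours and relatives that leave out overlapping, Hoxd or proteasome genes were chosen after seeing the data. For weakly read members, depth limits any statement to at most 3 counts per null library.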
